A study of Homo sapiens with 14 samples.

Results

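The genes described here encode the machinery that moves newly made proteins into the endoplasmic reticulum (ER) and carries them between the ER and the Golgi apparatus. They were chosen by symbol alone: SEC11, SEC13, SEC16, SEC22, SEC23, SEC24, SEC31, SEC61, SEC62 and SEC63 genes, the COPI coat genes with symbols beginning COPA, COPB, COPE, COPG or COPZ, and the TMED, SSR, SRP and SPCS genes. Of the 58434 symbols in the count table, 60 matched and 57 were kept after 3 pseudogene symbols were left out. Of these 57, 54 encode a component of the pathway, 2 are antisense RNAs (SEC24B-AS1 and SEC62-AS1), and SEC11B is annotated as a processed pseudogene in GENCODE v29.

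The cells were MDA-MB-231, an established human triple-negative breast cancer line, used here as a metastatic variant according to the study's methods, carrying a stable doxycycline-inducible lentiviral shRNA. The shNSi cells expressed a non-silencing shRNA and the shDAP5 cells an shRNA against DAP5 (gene EIF4G2), a translation initiation factor related to eIF4G that lacks the part binding the cap-binding protein eIF4E. Cells of both kinds received doxycycline at 1 µg/ml for 6 days, were selected with puromycin and sorted for a red fluorescent reporter, and the study names a single shRNA sequence for DAP5, so other effects of that sequence cannot be told apart from loss of DAP5. Polysomes were separated on sucrose gradients, and total mRNA, a light pool (few ribosomes per mRNA) and a heavy pool (more ribosomes per mRNA) were sequenced from 2 cultures of each kind, which the study describes as independently performed sets, while a moderate pool was sequenced from the shNSi cultures only, giving 14 libraries.

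Secreted and membrane proteins are recognised as they leave the ribosome by the signal recognition particle (SRP), which brings the ribosome to the SEC61 channel in the ER membrane. The translocon-associated protein complex (SSR genes) sits beside the channel, and the signal peptidase complex (SEC11 and SPCS genes) removes the signal sequence. Cargo then leaves the ER in vesicles coated with COPII and returns from the Golgi in vesicles coated with COPI, with p24 proteins (TMED genes) as cargo receptors and SEC22B among the SNAREs that fuse the vesicles. Coat complexes and the SRP are built from subunits of very different size, and as background, a long coding sequence has room for more ribosomes than a short one.

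The libraries held between 25899838 and 30795910 counts. EIF4G2 had 1486 and 1431 CPM (read counts scaled to a common library size) in shNSi total mRNA and 572 and 782 in shDAP5, a log2 change of -1.11 ± 0.18 (SE, adjusted p = 0.0172 in edgeR's quasi-likelihood test). The mesenchymal markers VIM, CD44, AXL and CAV1, 4 of 4, had between 204 and 5510 CPM in total mRNA, and their summed level was 7528 to 7598 CPM in shNSi and 5511 to 6006 in shDAP5. Among 4 markers of other breast cancer types, PGR was at 0, ESR1 and CDH1 were at most at 0.419 CPM, and ERBB2 was at 45.2 to 71.0 CPM in total mRNA. Of the markers of leukocytes and luminal epithelium, PTPRC and CD3E were at most at 0.114 CPM in total mRNA, and KRT19, EPCAM and GATA3 had between 3.94 and 25.5 CPM in total mRNA. Their summed level was 26.2 to 28.2 CPM in shNSi and 33.3 to 42.3 in shDAP5, and their part in the results was not tested. KRT19 had 11.6 and 8.54 CPM in shNSi and 25.5 and 15.0 in shDAP5, while EPCAM and GATA3 changed by 0.15 and -0.01 on the log2 scale. In pooled cells of this kind, fewer cells with an mRNA and less of it per cell cannot be told apart. The shDAP5 heavy libraries differed from each other: across the 52 genes of the pathway tested, the rank correlation between coding length and the log2 ratio of heavy polysomes to total mRNA was 0.44 in culture 1 and -0.32 in culture 2, against 0.77 and 0.86 in the shNSi cultures. The descriptions of the shDAP5 light libraries carry the code that shNSi uses for its moderate pool, so the light comparisons rest on the titles. The shDAP5 total libraries are titled as total polysome and the shNSi ones as total, with the same letter in their codes, so the values of total mRNA and translation efficiency rest on both being the same kind of library.

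To show the range of coding length within the pathway, the coding sequences of the SEC61 channel's small subunits are given whole, and for COPB1 (beta-COP, a large COPI subunit) and SEC24B (a COPII cargo adaptor) the same number of bases is given from the start codon. They come from GENCODE v29 (GRCh38), without the stop codon, and the capitals mark the start codon. SEC61G lies on the minus strand with its coding sequence at chr7:54752414-54757588 in 3 exons, SEC61B on the plus strand at chr9:99222364-99230421 in 4 exons, COPB1 on the minus strand at chr11:14457827-14498928 in 21 exons, and SEC24B on the plus strand at chr4:109433870-109539672 in 23 exons. The 204 bases are 100% of the SEC61G coding sequence, 7.14% of the 2859 bases of COPB1 and 5.52% of the 3699 bases of SEC24B, while SEC61B has 288 bases in all.
SEC61G: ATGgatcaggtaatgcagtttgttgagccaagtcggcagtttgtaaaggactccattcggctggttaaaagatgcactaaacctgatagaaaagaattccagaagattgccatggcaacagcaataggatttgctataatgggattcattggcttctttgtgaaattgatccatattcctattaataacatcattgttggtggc
SEC61B: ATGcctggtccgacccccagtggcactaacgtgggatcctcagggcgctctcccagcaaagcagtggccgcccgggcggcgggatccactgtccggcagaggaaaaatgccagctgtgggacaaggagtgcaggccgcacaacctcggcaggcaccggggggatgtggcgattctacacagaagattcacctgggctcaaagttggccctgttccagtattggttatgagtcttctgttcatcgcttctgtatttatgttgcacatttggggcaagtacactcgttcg
COPB1: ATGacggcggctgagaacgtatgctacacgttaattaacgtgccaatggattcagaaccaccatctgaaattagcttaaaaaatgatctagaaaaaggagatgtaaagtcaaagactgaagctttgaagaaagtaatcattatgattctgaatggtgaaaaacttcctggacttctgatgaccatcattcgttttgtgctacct
SEC24B: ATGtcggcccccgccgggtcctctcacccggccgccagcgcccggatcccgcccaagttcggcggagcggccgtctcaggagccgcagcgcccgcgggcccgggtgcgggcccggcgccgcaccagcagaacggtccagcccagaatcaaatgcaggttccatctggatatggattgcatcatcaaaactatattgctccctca

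The main comparison asked whether the share of each mRNA found in heavy polysomes, relative to its total level, differed after DAP5 silencing. This quantity, heavy translation efficiency, compares heavy polysomes with total mRNA as a log2 ratio, and its change was tested across 15374 genes. Of the 52 genes of the pathway tested, 12 fell and 6 rose at an adjusted p under 0.05. Those 12 are 23.1% of the 52, where 8.23% of all genes fell, and the 6 are 11.5%, where 4.85% of all genes rose. The median log2 change was 0.16 over the 52 and 0.09 over all genes, with 24 of the 52 below 0. The 12 that fell were large coat subunits of COPI and COPII, the COPII partners SEC16A and SEC23IP, and SRP54, and the 6 that rose were small subunits of the SRP, the SEC61 channel, the SSR and signal peptidase complexes, and COPE. These counts depended on single cultures. Without shDAP5 culture 2 none of the 52 passed the test, with 18 (34.6%) at an unadjusted p under 0.05, against 19.0% of all genes, and 0.27% of all genes called. A fit that leaves out a culture has 1 culture in that group, and its spread comes from the other group alone. Without shDAP5 culture 1 there were 28, of which 15 fell (28.8%, against 15.5% of all genes) and 13 rose (25.0%, against 13.0%). Without shNSi culture 1 there were 6, all lower, where 3.47% of all genes were called lower, and without shNSi culture 2 none, with 0.025% of all genes called and 11 of the 52 (21.2%) at an unadjusted p under 0.05, against 8.5% of all genes. With library sizes in place of TMM, which moved the median over all genes from 0.09 to 0.30, edgeR called none of the 52 and none of all genes, with 29 of the 52 (55.8%) at an unadjusted p under 0.05, against 29.9%. Without a term for each culture it called none of the 52 and 0.0% of all genes, with 24 of the 52 (46.2%) at an unadjusted p under 0.05, against 22.6%. With limma on quantile-normalized values 3 were called, COPB1 and SEC24B lower (1.09% of all genes) and SRP14 higher (1.57% of all genes).

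**Figure D1:**
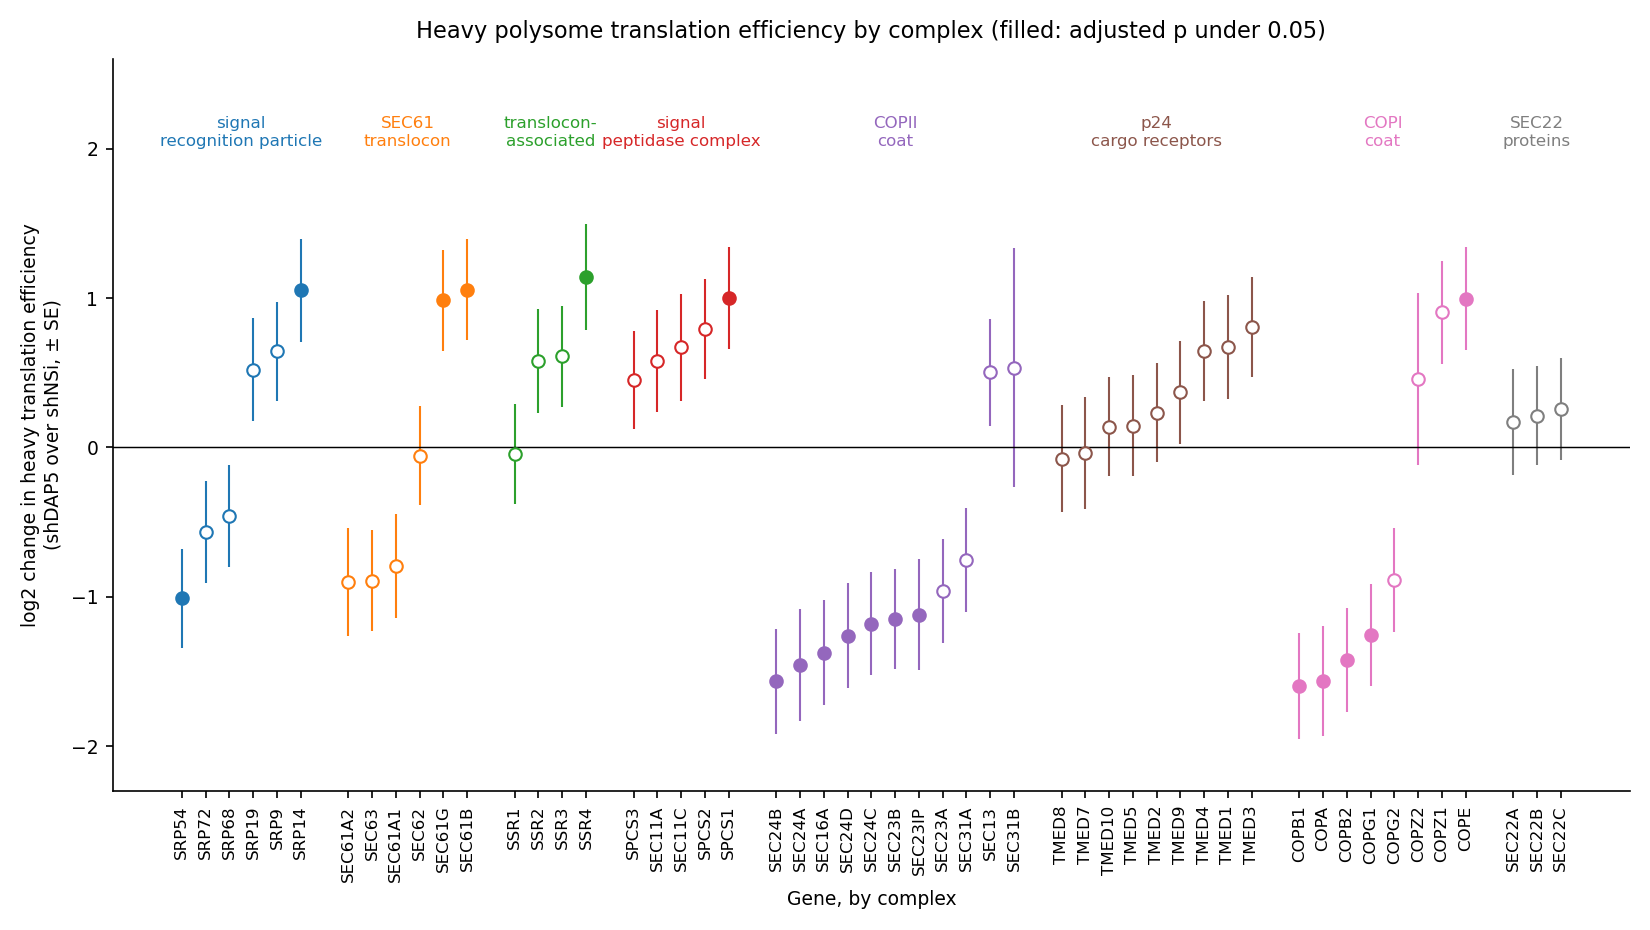
Log2 change in heavy translation efficiency (shDAP5 over shNSi, with SE, 2 cultures of each) for the 52 genes tested, grouped by complex, with filled points for an adjusted p under 0.05. Within the SRP, the SEC61 translocon and the COPI and COPII coats, members lie on both sides of 0, from -1.60 for COPB1 to 1.05 for SRP14 and SEC61B.

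In the COPI coat, 8 genes were tested, of which 4 fell, 1 rose and 3 did not pass. COPB1 had 475 and 587 CPM in shNSi heavy polysomes and 181 and 136 in shDAP5, while its total mRNA was 264 and 234 in shNSi and 218 and 226 in shDAP5. Heavy polysome levels of COPB1 did not overlap between the groups, and its heavy translation efficiency fell by 1.60 on the log2 scale (SE 0.35, adjusted p = 0.0075), the lowest value of the 52. COPA, the alpha-COP subunit, had 219 and 411 CPM in shNSi heavy polysomes and 112 and 75.4 in shDAP5, against 196 and 176 and then 165 and 169 in total mRNA. Its change was -1.56 ± 0.37 (adjusted p = 0.00849), and the spread between the shNSi cultures was wide. COPB2 (beta-prime-COP) had 225 and 288 CPM in shNSi heavy polysomes and 91.6 and 63.8 in shDAP5, with 135 and 119 and then 94.9 and 107 in total mRNA. Its change was -1.42 ± 0.35 (adjusted p = 0.00927).

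The gamma-COP paralogs COPG1 and COPG2 lay on the same side, COPG1 with a change of -1.26 ± 0.34 (adjusted p = 0.0154) and COPG2 with -0.89 ± 0.35, which did not pass (adjusted p = 0.077). The small subunits lay on the other side. COPE, the epsilon-COP subunit, had 123 and 91.1 CPM in shNSi heavy polysomes and 161 and 234 in shDAP5, against 175 and 179 and then 170 and 154 in total mRNA. All shDAP5 heavy values of COPE were above the shNSi values, and its translation efficiency rose by 0.99 on the log2 scale (SE 0.34, adjusted p = 0.0464). The zeta-COP gene COPZ1 had a change of 0.90 ± 0.34 (adjusted p = 0.0691), and its paralog COPZ2, at most 1.84 CPM in total mRNA, 0.46 ± 0.58.

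In the COPII coat, 11 of 12 genes were tested, of which 7 fell, none rose and 4 did not pass. SEC24 proteins form the inner coat and select cargo, and all 4 paralogs fell. SEC24B had 102 and 112 CPM in shNSi heavy polysomes and 53.5 and 35.8 in shDAP5, while its total mRNA was 62.8 and 49.5 and then 59.6 and 75.3. Its heavy level separated the groups and its total level did not, and the change was -1.57 ± 0.35 (adjusted p = 0.00762). SEC24A had 72.6 and 54.8 CPM in shNSi heavy polysomes and 41.6 and 19.3 in shDAP5, against 42.6 and 23.4 and then 36.4 and 41.5 in total mRNA. Its change was -1.46 ± 0.38 (adjusted p = 0.0133), and leaving out shDAP5 culture 2 moved it to -0.82. SEC24D and SEC24C had changes of -1.26 ± 0.35 (adjusted p = 0.0174) and -1.18 ± 0.34 (adjusted p = 0.0214). The order of the 4 paralogs was within their standard errors.

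SEC16A, the large scaffold of ER exit sites and with 7071 bases the longest coding sequence of the pathway, had 161 and 238 CPM in shNSi heavy polysomes and 89.7 and 62.2 in shDAP5, against 137 and 124 and then 119 and 137 in total mRNA. The change was -1.37 ± 0.35 (adjusted p = 0.0115). SEC23 proteins activate the GTPase of the coat, and the paralogs SEC23B and SEC23A had changes of -1.15 ± 0.34 (adjusted p = 0.0222) and -0.96 ± 0.35 (adjusted p = 0.0557). SEC23IP, a SEC23-binding protein, had a change of -1.12 ± 0.37 (adjusted p = 0.0416). None of the outer coat genes passed, and their difference from the inner coat was not tested. SEC31A had -0.75 ± 0.35 (adjusted p = 0.134) and SEC13, its short partner, 0.50 ± 0.36 (adjusted p = 0.354). SEC31B, at most 1.49 CPM in total mRNA, gave 0.53 ± 0.80, and SEC16B had at most 3 counts in any library and was not tested.

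In the signal recognition particle, 1 of 6 genes fell, 1 rose and 4 did not pass. SRP54 binds the signal sequence and hydrolyses GTP. It had 155 and 169 CPM in shNSi heavy polysomes and 89.6 and 94.7 in shDAP5, against 72.3 and 75.1 and then 82.6 and 85.0 in total mRNA, and its change was -1.01 ± 0.33 (adjusted p = 0.036). SRP14 belongs with SRP9 to the domain that slows elongation. SRP14 had 117 and 107 CPM in shNSi heavy polysomes and 249 and 309 in shDAP5, against 209 and 198 and then 273 and 214 in total mRNA. Every shDAP5 heavy value of SRP14 was above the shNSi values, and its change was 1.05 ± 0.35 (adjusted p = 0.0366). SRP9 had a change of 0.64 ± 0.33 and SRP19 of 0.52 ± 0.35, while the longer SRP68 and SRP72 had -0.46 ± 0.34 and -0.57 ± 0.34, and none of these 4 passed.

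In the SEC61 translocon, 2 of 6 genes rose and 4 did not pass. SEC61B, the beta subunit of the channel, had 38.8 and 46.5 CPM in shNSi heavy polysomes and 100 and 118 in shDAP5, against 169 and 190 and then 245 and 195 in total mRNA. Its change was 1.05 ± 0.34 (adjusted p = 0.033). SEC61G, the gamma subunit, had 16.6 and 16.9 CPM in shNSi heavy polysomes and 26.4 and 33.8 in shDAP5, against 85.5 and 88.6 and then 79.3 and 76.2 in total mRNA. Its change was 0.99 ± 0.34 (adjusted p = 0.045). The paralogs SEC61A1 and SEC61A2, which encode the pore itself, had changes of -0.79 ± 0.35 (adjusted p = 0.114) and -0.90 ± 0.36 (adjusted p = 0.0867). SEC63 and SEC62, which help post-translational transport, had -0.89 ± 0.34 (adjusted p = 0.0678) and -0.05 ± 0.33 (adjusted p = 0.933).

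Among the ER partners of the channel, changes were small or upward in value. In the translocon-associated protein complex 1 of 4 genes rose, SSR4 (the delta subunit), with 50.2 and 64.2 CPM in shNSi heavy polysomes and 75.7 and 154 in shDAP5, against 119 and 167 and then 126 and 115 in total mRNA. Its change of 1.14 ± 0.35 (adjusted p = 0.0297) was the highest of the 52, and without shDAP5 culture 2 it was 0.55. SSR3, SSR2 and SSR1 had changes of 0.61, 0.58 and -0.04, none of which passed. In the signal peptidase complex 1 of 5 rose, the accessory subunit SPCS1, with 42.6 and 39.4 CPM in shNSi heavy polysomes and 78.1 and 102 in shDAP5, against 111 and 156 and then 151 and 133 in total mRNA. Its change was 1.00 ± 0.34 (adjusted p = 0.0428). The catalytic paralogs SEC11A and SEC11C had 0.58 ± 0.34 and 0.67 ± 0.36, and SPCS2 and SPCS3 had 0.79 ± 0.34 and 0.45 ± 0.33.

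Of 10 p24 cargo receptor genes, 9 were tested and none passed, with TMED8, TMED7, TMED10 and TMED5 between -0.08 and 0.15 and TMED3 highest at 0.81 ± 0.34 (adjusted p = 0.0974). The 3 SEC22 genes did not pass either and lay between 0.17 and 0.26, and SEC22B has near-identical copies in the genome between which the counting may have split reads. TMED6 had at most 2 counts in a library, SEC11B at most 3, and SEC62-AS1 none in all 14, which allows up to 3 counts a library. SEC24B-AS1, with 1 to 18 counts a library, passed the filter only where light libraries entered and was not called there with all cultures in the fit and the shNSi light pool as the control. The deposited counts carry the mark rev in their name, whose meaning the sources used here do not state, and if counting did not use the strand, reads of SEC24B and its antisense RNA could not be told apart.

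**Figure D2:**
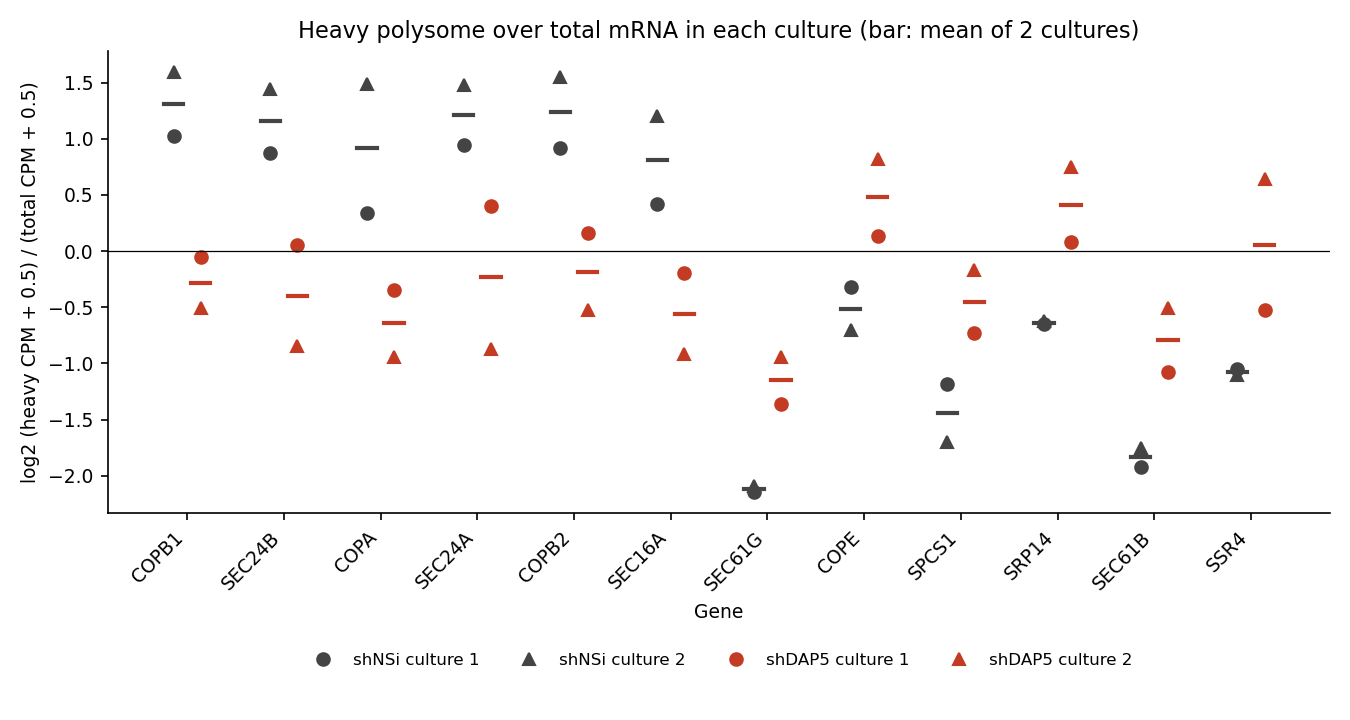
Heavy polysomes over total mRNA as a log2 ratio (CPM plus 0.5, normalized over 8 libraries) in each culture for the 6 genes with the lowest and the 6 with the highest change, with bars for the mean of 2 cultures. Both shDAP5 cultures lie below both shNSi cultures for the 6 genes on the left and above them for the 6 on the right, and in all 12 shDAP5 culture 2 lies farther from shNSi than culture 1.

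In heavy translation efficiency, the shDAP5 cultures were both lower than the shNSi cultures for 20 of the 52 genes and both higher for 20. These are 38.5% each, where 28.3% of all genes were lower and 31.7% higher, so that separation by itself was common in the table. The 12 genes called lower and the 6 called higher were among them. Leaving out any 1 of the 4 cultures kept the sign of the 6 lowest and 6 highest genes, with changes between -1.01 and -2.15 for COPB1, COPA, COPB2, SEC24B and SEC16A, between -0.82 and -2.11 for SEC24A, and between 0.55 and 1.72 for the 6 that rose.

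Coding length ordered the values. Across the 52 genes the rank correlation between coding length and the change in heavy translation efficiency was -0.85, and across the 12476 genes with a coding length it was -0.71, both given as a description over genes of the same 8 libraries. It was -0.89 without the sparse SEC31B. With total transcript length the correlation was -0.64, with the length before the start codon -0.21 and with the length after the coding sequence -0.18. The share of G and C in the coding sequence gave 0.30, and at the last position of each codon 0.47.

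Of 13 genes with coding sequences under 600 bases, 5 rose and none fell, with a median change of 0.67, and over the 1527 genes of this length in the table the median was 0.83 with 30.8% called higher. Of 18 genes of 600 to under 1200 bases, only COPE, at 924 bases, was called (5.56%, against 4.57% of all genes of this length called higher), and the median was 0.24 against 0.39 over all genes of this length. Of 5 genes of 1200 to under 2200 bases, SRP54 fell, where 7.12% of all genes of this length were called lower, and the median was -0.79 against -0.19. Of 16 genes of 2200 bases or more, 11 fell, with a median of -1.22, and over the 3228 genes of this length the median was -0.74 with 28.6% called lower. The genes of the pathway thus followed the length trend of the table, and in each of the 4 length classes their median lay below that of all genes. Whether this offset differs from that of other long mRNAs was not tested.

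**Figure D3:**
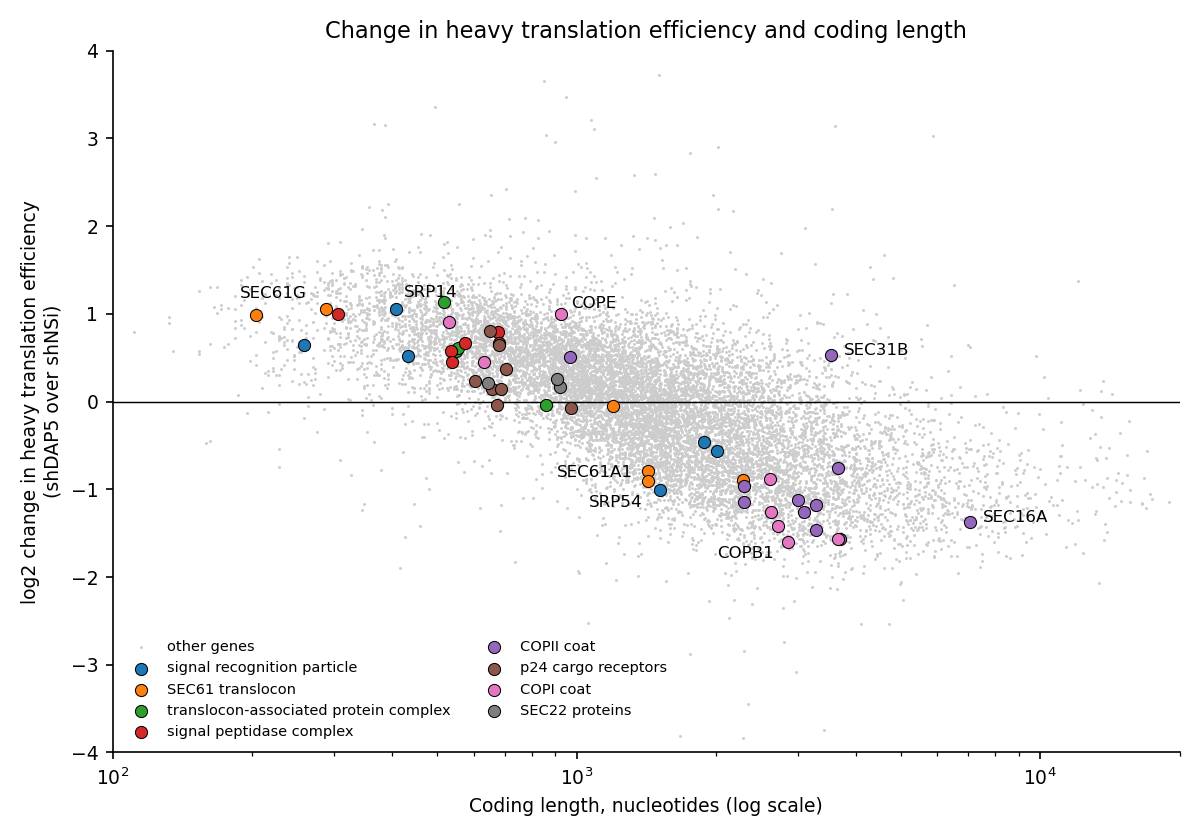
Log2 change in heavy translation efficiency against coding length (log scale) for genes of the pathway, coloured by complex, and all other genes with a coding length in grey, of which 14 lie outside the axes. The rank correlation was -0.85 over the 52 genes and -0.71 over all genes, and COPE and SEC31B lie above genes of like length.

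An offset for coding length was then fitted to each library, as a smooth curve of its deviation from the mean of its fraction. The mean was taken over shNSi and shDAP5 libraries together. The offset takes out any difference between shDAP5 and shNSi that follows coding length. A median near 0 over all genes and the loss of changes that follow length are thus built in. With the offset, 3 of the 52 genes were called, all lower. They were COPB1 with a change of -0.96 ± 0.25 (adjusted p = 0.0218), SRP54 with -0.86 ± 0.25 (adjusted p = 0.0369) and COPB2 with -0.82 ± 0.25 (adjusted p = 0.049). The median over the 52 moved to -0.28, against -0.0013 over all genes, with 39 of the 52 below 0, and 35 kept the sign they had without the offset. Those 3 calls stand beside 2.54% of all genes called lower and 1.84% called higher in that fit. The other 9 that fell without the offset lay between -0.38 for SEC16A and -0.80 for COPA and SEC24B and did not pass, with SEC24A at -0.75. None of the 6 that rose passed it: SEC61G was at -0.07, SPCS1 at 0.07, SEC61B at 0.10, SRP14 at 0.22, SSR4 at 0.40 and COPE, the highest of the 6, at 0.64 ± 0.25 (adjusted p = 0.132).

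Within shNSi cells, position on the gradient also separated the genes by length. Of the 52, 20 had their highest ratio to total mRNA in the heavy pool in both cultures, and their coding sequences had 1428 to 7071 bases (median 2670). For 12 the moderate pool was highest in both cultures (408 to 1197 bases), for 12 the light pool (median 537 bases, with SEC31B at 3537 as the exception in length), and for 8 the cultures differed. COPB1 had log2 ratios to total mRNA of -1.65 and -1.34 in the light, -1.68 and -0.82 in the moderate and 1.24 and 1.75 in the heavy shNSi pool. It was thus concentrated in the heavy pool of both cultures. SRP14 had 0.63 and 0.71, 0.95 and 0.81, and -0.44 and -0.46 in the same pools, highest in the moderate pool. SEC61B had 1.30 and 0.19 in the light pool, -0.84 and -1.27 in the moderate and -1.71 and -1.60 in the heavy, highest in the light pool.

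In shDAP5 cells, which have no moderate pool here, the heavy pool of COPB1 stood at 0.01 and -0.50, of SRP14 at 0.15 and 0.76 and of SEC61B at -1.004 and -0.50. For 6 genes the light pool exceeded the heavy in both shNSi cultures and the heavy exceeded the light in both shDAP5 cultures: COPE, SPCS2, SRP14, SSR2, TMED1 and TMED2. These are 11.5% of the 52, against 3.0% of all genes. The reverse held for SEC61A2 alone (1.92%, against 2.97% of all genes). The 6 genes have coding sequences of 408 to 924 bases, and the share among all genes of that length was not counted. These ratios and the changes above come from the same libraries.

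**Figure D4:**
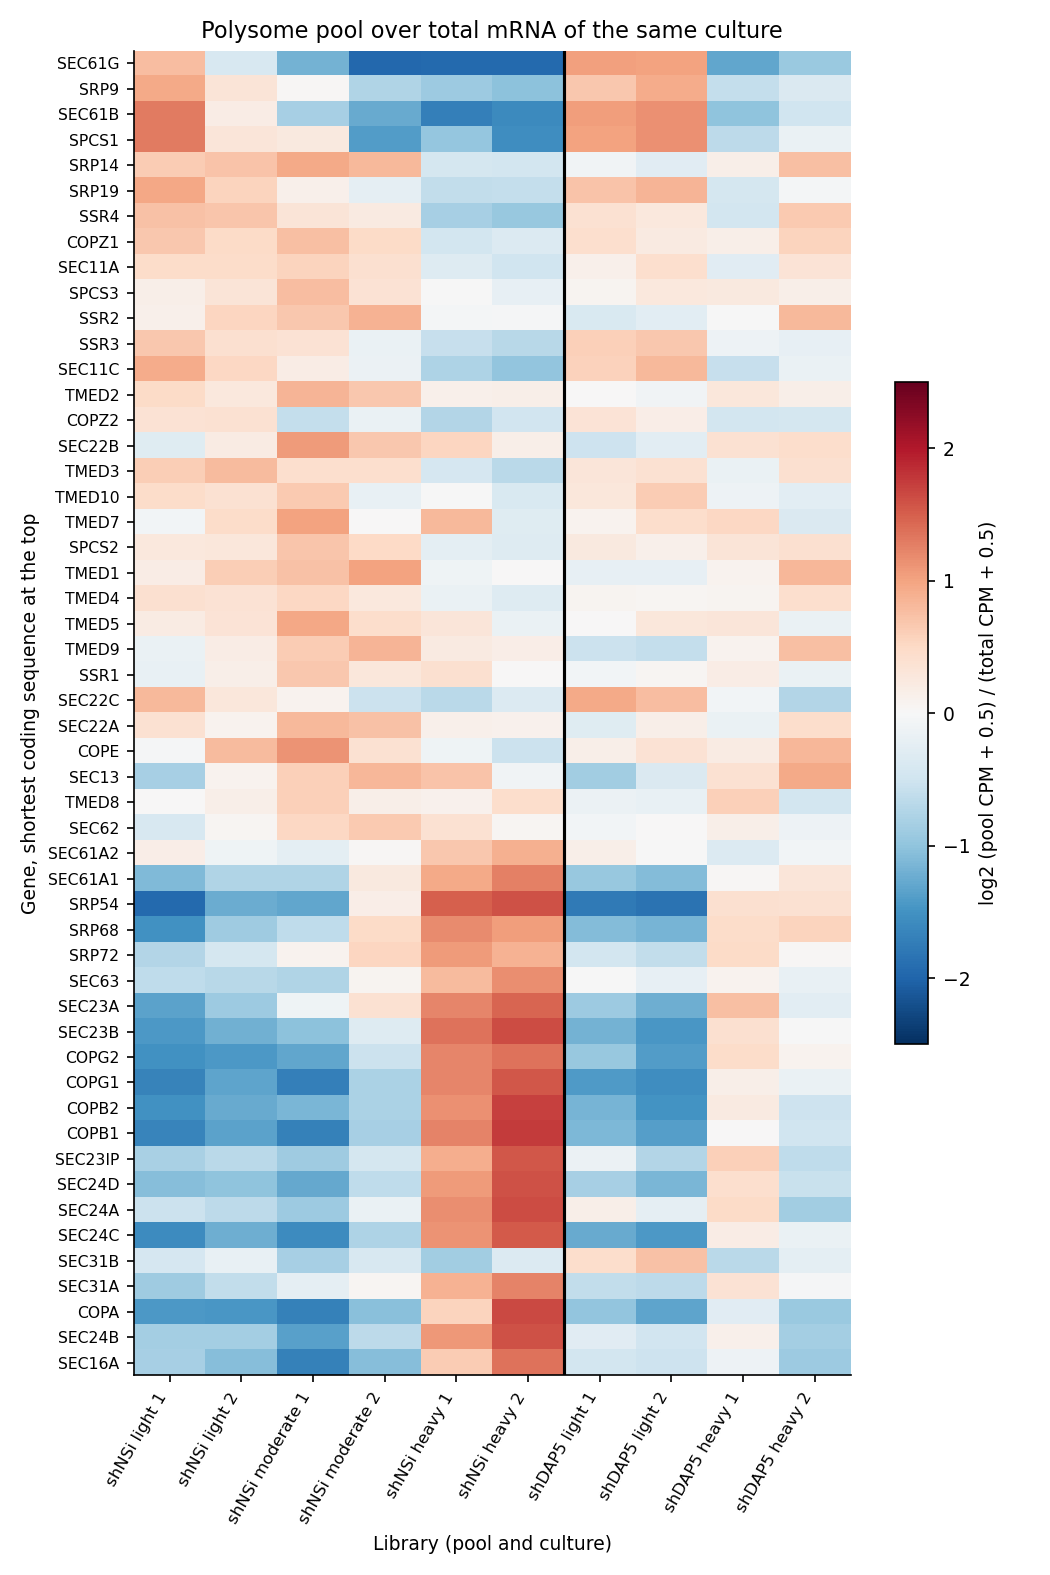
Log2 ratio of each polysome pool to total mRNA of the same culture (CPM plus 0.5, normalized over 14 libraries) for the 52 genes tested, ordered by coding length with the shortest at the top and with shNSi to the left of the line. Long genes such as COPB1 reach 1.24 and 1.75 in the shNSi heavy pool and 0.01 and -0.50 in the shDAP5 heavy pool, while SRP14 is highest in the shNSi moderate pool at 0.95 and 0.81.

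The calls also depended on the control pool. When shDAP5 heavy polysomes were set against shNSi counts summed over the moderate and heavy pools, none of the 52 passed the adjusted threshold in edgeR's test, and 1, SEC61G, had an unadjusted p under 0.05 with a change of 0.76 ± 0.36. In that fit 0.0% of all genes were called and 2.51% had an unadjusted p under 0.05. COPB1 then had a change of -0.61 ± 0.37, COPA of -0.64 ± 0.36, SEC24B of -0.65 ± 0.36 and SEC24A of -0.64 ± 0.37. SRP14 had 0.16 ± 0.37, COPE 0.29 ± 0.36 and SEC61B 0.68 ± 0.36. Of the 52 genes 46 kept the sign of their change, and the rank correlation of the change with coding length was -0.74. Counts were added as sequenced, from moderate libraries of 28532504 and 30795910 counts and heavy libraries of 28092151 and 30050488. The sum thus mixes both shNSi pools about evenly, whatever amount of RNA each held. In the labels the shDAP5 heavy libraries carry the name and code of the shNSi heavy pool, which is why that pool alone was the control in the comparisons above.

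**Figure D5:**
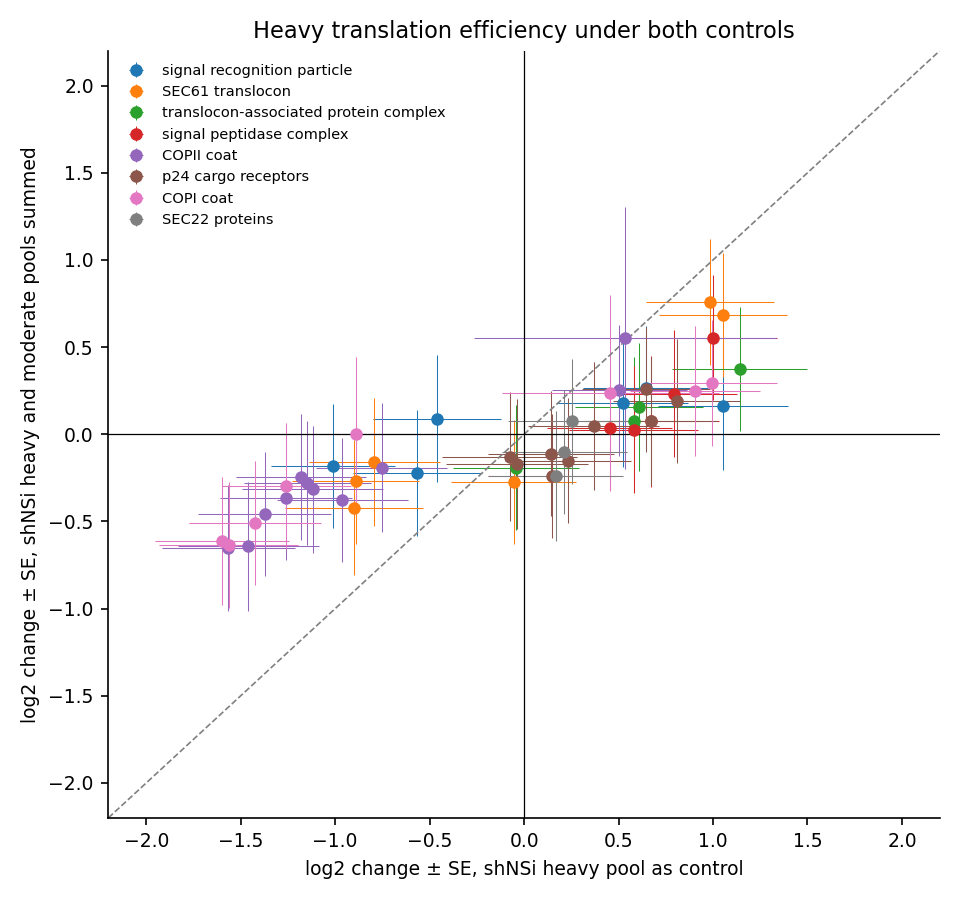
Log2 change in heavy translation efficiency (with SE) against the shNSi heavy pool alone (horizontal axis) and against the shNSi heavy and moderate pools summed (vertical axis), for the 52 genes, with a dashed line of equality. With the summed control SEC24B moves from -1.57 to -0.65 and SRP14 from 1.05 to 0.16, 46 of the 52 genes keep their sign, and the median moves from 0.16 to -0.11.

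Heavy polysome levels, without the ratio to total mRNA, were compared across 14270 genes. Of 51 genes of the pathway tested, 14 fell (27.5%, against 16.7% of all genes) and 8 rose (15.7%, against 14.2%), so that the share that rose was near that of the table. With library sizes in place of TMM, which moved the median over all genes from 0.09 to 0.34, 9 fell (17.6%, against 7.98% of all genes) and 9 rose (17.6%, against 17.5%). With the offset for coding length 6 were called, all lower (11.8%, against 7.12% of all genes): COPA, COPB1, COPB2 and SEC61A1 of the 14, and SEC22B and SPCS3, which were not called without it. None of the 8 rises passed, where 4.83% of all genes rose. Of the 22, 17 were among the 18 called in heavy translation efficiency. The 5 others were COPG2, SEC61A1 and SEC63, which fell, and COPZ1 and SRP9, which rose, and SRP54 was called in translation efficiency only (adjusted p = 0.0519 here). SEC31B did not pass the filter on low counts in this fit. The lowest adjusted p was that of COPB2, whose heavy level fell by 1.72 on the log2 scale (SE 0.35, adjusted p = 5.66e-05), beside -1.75 ± 0.36 for COPA and -1.74 ± 0.37 for COPB1. SEC16A had -1.39 ± 0.34 (adjusted p = 0.000862).

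SEC61A1 had 382 and 597 CPM in shNSi heavy polysomes and 128 and 182 in shDAP5, and 261 and 333 and then 152 and 172 in total mRNA. Both quantities were lower in both shDAP5 cultures, as they also were for COPB1, COPA and COPB2. The heavy level of SEC61A1 fell by 1.66 (SE 0.37, adjusted p = 0.0002), while its total mRNA changed by -0.87 ± 0.19 (adjusted p = 0.0584) and its light polysome level by -1.04 ± 0.32 (adjusted p = 0.504). Among genes that rose in heavy polysomes, SEC61B had a change of 1.35 ± 0.33 (adjusted p = 0.000762), SRP14 of 1.32 ± 0.35 (adjusted p = 0.00209), SPCS1 of 1.13 ± 0.33 (adjusted p = 0.00493), SSR4 of 1.00 ± 0.33 (adjusted p = 0.0137) and COPZ1 of 1.02 ± 0.35 (adjusted p = 0.0196). SRP9, which had 49.7 and 44.6 CPM in shNSi heavy polysomes and 97.6 and 97.7 in shDAP5 against 124 and 122 and then 179 and 146 in total mRNA, had 1.05 ± 0.33 (adjusted p = 0.00898). With the summed control none of the pathway genes was called in heavy polysomes, with 5 of 52 (9.62%) at an unadjusted p under 0.05, against 12.4% of all genes, of which 2.77% were called. Without shDAP5 culture 2 none was called either, with 17 of 52 (32.7%) at an unadjusted p under 0.05, against 24.2% of all genes, of which 0.0134% were called.

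Total mRNA levels were compared across 14992 genes to see whether the mRNAs themselves changed. None of the 52 genes of the pathway passed the adjusted threshold in edgeR's test, where 0.354% of all genes did, and 6 (11.5%) had an unadjusted p under 0.05, against 12.0% of all genes. DESeq2 called SEC61A1 alone, 1.92% of the 52, and 1.82% of all genes. The 6 were SEC61A1, SSR3 (-0.61 ± 0.19), TMED9 (-0.55 ± 0.19), SPCS3 (-0.61 ± 0.23), TMED4 (-0.46 ± 0.19) and SRP9 (0.40 ± 0.18). Of the 6 lowest and 6 highest genes in heavy translation efficiency, the largest total mRNA difference in size was that of COPB2 at -0.33 (adjusted p = 0.503). The median change was -0.11 over the 52 and 0.01 over all genes, and without shNSi culture 1 SEC61A1 and TMED9 were called lower (3.85%, against 2.12% of all genes) and SEC23A higher (1.92%, against 0.352%).

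As a level per kilobase of the annotated transcript in shNSi total mRNA, SEC61B was highest at 329 ± 28.4 CPM per kilobase (SD, n = 2), before SSR2 at 222 ± 23 and SRP14 at 189 ± 6.97. SSR2 was above SRP14 in both cultures, and SEC13, next at 174 ± 1.34, was below SRP14 in both. TMED9 at 169.8 ± 39.9 and SPCS1 at 161 ± 38.1 overlapped with each other, with SEC13 and with SRP14. The large COPI subunits COPB1, COPA and COPB2 had 71.6 ± 6.22, 38.9 ± 2.95 and 37.7 ± 3.46 CPM per kilobase, against 155 ± 2.49 for COPE and 139 ± 8.63 for COPZ1. Among paralogs, SEC61A1 was at 81.8 ± 14 and SEC61A2 at 3.87 ± 0.23, COPG1 at 58.7 ± 4.11 and COPG2 at 5.17 ± 0.28, SEC31A at 55.4 ± 6.28 and SEC31B at 0.16 ± 0.07. SEC24C, at 45.7 ± 2.09, was above SEC24D (18.0 ± 5.09), SEC24B (14.9 ± 2.47) and SEC24A (5.24 ± 2.15). SEC23B was at 32.0 ± 2.06 and SEC23A at 17.6 ± 6.35.

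The fits with light libraries tested 53 of the genes chosen, the 52 of the pathway and SEC24B-AS1. In light polysomes, none of the 53 passed the adjusted threshold in edgeR's test and 0.0% of the 15529 genes did. DESeq2 called none of the 53 either, where it called 0.489% of all genes lower and 0.187% higher. At an unadjusted p under 0.05 there were 10 (18.9%), against 8.56% of all genes. Of these, 8 were lower in value, among them TMED9 (-1.21 ± 0.35), TMED1 (-1.20 ± 0.39), SSR2 (-1.07 ± 0.33) and SEC61A1, and SEC31B and SEC24B (0.71 ± 0.26) were higher. Light translation efficiency gave no call among the 53 by edgeR or DESeq2 and 0.0% among all genes, with 9 of the 53 (17.0%) at an unadjusted p under 0.05 against 5.22% of all genes. SRP14 had the lowest p of these, with a light change of -0.86 ± 0.26 (adjusted p = 0.879), beside 0.56 ± 0.21 for SEC24A and 0.55 ± 0.20 for SEC63. Without shNSi culture 1, 25 of the 53 were called in light polysomes, 17 lower (32.1%, against 16.3% of all genes) and 8 higher (15.1%, against 12.6%), SEC24B-AS1 among the latter with 1 count in the shNSi light library left and 18 and 14 in shDAP5, and 14 in light translation efficiency (26.4%, against 12.3%). With the shNSi moderate pool as the control, whose code the shDAP5 light libraries carry, 17 (32.1%) were called in each, SEC24B-AS1 among those in light polysomes with 3 and 1 counts in shNSi and 18 and 14 in shDAP5, where 25.5% of all genes were called in light polysomes and 27.5% in light translation efficiency, so these shares were near those of the table. In both fits SEC24B-AS1 passed the filter on low counts through the shDAP5 libraries, where it is high, so that its call is no evidence of a difference. The same holds for SEC31B, called higher in light polysomes against the moderate pool, with 9 and 7 counts in shNSi and 65 and 29 in shDAP5.

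Whether the change in heavy polysomes differed from that in light polysomes was tested across 15878 genes as the change in the heavy over light ratio. Of the same 53, 8 fell (15.1%, against 5.21% of all genes) and 1 rose (1.89%, against 1.54%). With library sizes in place of TMM, 7 fell (against 4.04% of all genes) and 5 rose (against 6.27%), and with DESeq2 14 fell (against 9.05%) and 4 rose (against 3.33%). SEC24B fell by 2.09 on the log2 scale (SE 0.42, adjusted p = 0.0175), with 36.0 and 29.2 CPM in shNSi light polysomes and 50.5 and 55.8 in shDAP5. Its light level was thus higher in both shDAP5 cultures while its heavy level was lower. SEC24A had a change of -2.07 ± 0.43 (adjusted p = 0.0175), with 30.6 and 15.8 CPM and then 41.5 and 36.8 in light polysomes. SEC63 had -1.50 ± 0.39 (adjusted p = 0.03). SRP14 was the gene that rose, by 1.86 (SE 0.48, adjusted p = 0.0266), with 340 and 346 CPM in shNSi light polysomes and 265 and 183 in shDAP5, where its light change did not pass (-0.61 ± 0.32, adjusted p = 0.61). Without shDAP5 culture 2, with the length offset, without a term for each culture and with limma, none of those tested was called, with 9, 10, 24 and 26 at an unadjusted p under 0.05 in these fits, where 6.53%, 18.3%, 21.7% and 25.1% of all genes were. The 10 under the length offset were 19.2% of the 52 tested there, near the share of the table.

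Other genes of the pathway, outside the symbol rule, were counted from lists of their complexes in heavy translation efficiency. These counts stand beside the 8.23% of all genes that fell and the 4.85% that rose. In lists of 7 to 13 genes a single call makes a large share, so it was not read as a difference from the table. In the oligosaccharyltransferase, which attaches glycans in the ER, 3 of 12 fell and 3 rose, with the catalytic subunits STT3A (-1.56 ± 0.35, adjusted p = 0.0075) and STT3B (-1.43 ± 0.34) lowest and the small subunits TMEM258 (1.30 ± 0.34) and DAD1 (1.16 ± 0.35) highest. In the ER membrane protein complex, an insertase, 1 of 10 fell and 1 rose, EMC1 at -1.61 ± 0.35 and EMC4 at 1.13 ± 0.34. Of 7 tail-anchor insertion genes tested, 1 fell, BAG6 (-1.12 ± 0.36), and 2 rose, ASNA1 (1.07 ± 0.34) and UBL4A (1.00 ± 0.34). None of 4 genes of the SRP receptor and TRAM passed, with SRPRA at -0.72 ± 0.34 and SRPRB at 0.45 ± 0.34.

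Among vesicle genes, 2 of 11 COPII accessory genes tested fell, MIA3 (-1.26 ± 0.36) and the cargo receptor LMAN1 (-1.23 ± 0.35), and none rose. Of 12 COPI accessory genes 1 fell, GBF1 (-1.36 ± 0.34), which loads the coat's GTPase, and none rose, while ARCN1, the delta-COP subunit, was at -0.86 ± 0.36 (adjusted p = 0.0932). Of 9 ER-Golgi SNAREs 2 rose, BNIP1 (1.24 ± 0.35) and BET1 (1.00 ± 0.35). In clathrin and its AP-1 and AP-2 adaptors, the coat of later steps, 4 of 13 fell and 2 rose, with the heavy chain CLTC (-1.65 ± 0.38) and AP1G1 (-1.34 ± 0.35) lowest and the light chain CLTB (1.17 ± 0.35) and AP2S1 (1.08 ± 0.36) highest. In total mRNA no gene of these 8 lists passed the adjusted threshold, and with the summed control pools none of them passed in heavy translation efficiency.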

How the data were processed

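RNA from MDA-MB-231 cultures was sequenced by the authors as total mRNA and polysome pools (single reads, HiSeq instrument). The authors deposited raw read counts per gene symbol for 14 libraries, without normalization. Submitters' processing notes name STAR 2.6.0a, limma and the build hg19, without roles; the deposited counts carry the name featureCounts, and the annotation and use of strand are not stated in the sources used here. Of 58434 symbols, 37621 matched GENCODE v29 (GRCh38), used for coding length and sequence only; 18885 had a coding length, and 27 symbols had been turned into dates.

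Counts were analysed in R 4.3.3. Each fraction (4 libraries) passed filterByExpr, was scaled by TMM and entered edgeR 4.0.16, whose quasi-likelihood test was run with robust estimation. Translation efficiency and the heavy over light ratio were tested in 8 libraries with a term for each culture and the interaction of fraction and shRNA. P-values were adjusted by Benjamini-Hochberg over all genes tested, threshold 0.05. SEs are the log2 change divided by the root of F. CPM are TMM-scaled within a fraction; printed log2 ratios add 0.5 CPM. With 2 cultures a group an exact permutation test cannot go below 0.333, so none was used. The fits were tested on simulated data.

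Genes given with values per library were the 6 lowest and 6 highest in heavy translation efficiency with a mean of at least 10 CPM in total mRNA, up to 5 of lowest p in each direction in the other fits, and paralog pairs; SRP54 was added after its values were seen. Members, lists and alternatives were chosen with earlier results of these data known. Alternatives used DESeq2 1.42.0, limma 3.58.1, other filters and scalings, coding length offsets, the replicate number as a block, other shNSi pools, no culture term, and each culture left out. One marker of other cell types is not reported here.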

Additional observations from a re-analysis of the deposited data

Results flagged for a closer look

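The change after DAP5 silencing differed between heavy and light polysomes, by edgeR's test of the interaction, for 9 of 53 genes, 8 lower (against 5.21% of all genes) and 1 higher (against 1.54%). None of them was called without shDAP5 culture 2, with the offset for coding length, without a term for each culture or with limma. The log2 difference (heavy minus light change) was -2.09 for SEC24B, -2.07 for SEC24A, -1.90 for COPA, -1.89 for COPB1, -1.88 for SEC16A, -1.53 for COPB2, -1.50 for SEC63 and -1.48 for SEC23IP, and 1.86 for SRP14. All 9 were also called in heavy polysomes, where 8 of them fell and SRP14 rose. The light libraries enter by their titles, while the shDAP5 ones carry the code of the shNSi moderate pool. Samples far from their group could not be sought by a rule, since each group holds 2 libraries.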

How the results depend on the processing

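Counts of the chosen genes called depended on several choices, and the cause of these shifts was not tested. Main counts were 0 in total mRNA, 22 in heavy polysomes, 0 in light polysomes, 18 in heavy translation efficiency, 0 in light translation efficiency and 9 in the heavy over light ratio. DESeq2 gave 1 in total mRNA and 18 in the ratio. Library size without TMM gave 0 in heavy translation efficiency, and limma on quantile-normalized values 3 there and 0 in the ratio. With no filter on low counts, 2 were called lower in total mRNA (3.57%, against 1.62% of all genes) and 2 in light polysomes (3.64%, against 0.689%). Coding length offsets gave 6 in heavy polysomes (all lower, 11.8%, against 7.12% of all genes), 3 in heavy translation efficiency and 0 in the ratio. Without a term for each culture, heavy translation efficiency and the ratio gave 0. The shNSi heavy and moderate pools summed gave 0 in heavy polysomes and 0 in heavy translation efficiency. The shNSi moderate pool as control gave 17 in light polysomes and 17 in light translation efficiency, and light and moderate pools summed gave 1 in the latter, higher (1.89%, against 0.679% of all genes called higher and 2.18% lower). Leaving out each culture gave 0 to 3 in total mRNA, 0 to 17 in heavy polysomes, 0 to 25 in light polysomes, 0 to 28 in heavy translation efficiency, 0 to 14 in light translation efficiency and 0 to 19 in the ratio. The 17 and the 19 without shNSi culture 1 were 26.9% lower and 5.77% higher in heavy polysomes (16.7% and 7.07% of all genes) and 22.6% and 13.2% in the ratio (10.4% and 7.44%).

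Deviations of same-numbered libraries correlated at -0.10 in total mRNA, 0.05 in heavy and 0.05 in light polysomes. They correlated at -0.20 and -0.02 in heavy and light translation efficiency and at -0.17 in the ratio. These correlations rest on 1 difference per kind of cells. They cannot show whether same-numbered cultures were run as a set, and the main fits used no block. With the replicate number as a block, the counts were 1 in total mRNA, 21 in heavy polysomes, 0 in light polysomes, 6 in heavy translation efficiency (6 lower and 0 higher, so that none of the 6 rises passed), 0 in light translation efficiency and 7 in the ratio. Of all genes, 1.69% were then called lower and 0.747% higher in total mRNA, 17.4% and 15.6% in heavy polysomes, 3.38% and 1.10% in heavy translation efficiency and 3.94% and 0.964% in the ratio. The block with length offsets gave 1, 13, 1, 2, 0 and 0 in the same order, the 13 all lower (25.5%, against 13.0% of all genes). The 1, 1 and 2 in total mRNA, light polysomes and heavy translation efficiency were also lower (1.92%, 1.92% and 3.85%, against 0.415%, 1.17% and 2.42% of all genes). With the numbers crossed, chosen after seeing the data, the block gave 0 in total mRNA, 27 in heavy translation efficiency (34.6% lower and 17.3% higher, against 15.4% and 11.4% of all genes) and 16 in the ratio (24.5% and 5.66%, against 9.89% and 4.21%).

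Of 180 alternative values for the 6 lowest and 6 highest genes in heavy translation efficiency, 75 kept their direction and call, 103 kept their direction without passing and 2 reversed, SEC61G under length offsets (-0.069) and under these with the block (-0.069). Each library had at least 25899838 counts, and for the genes with 3 or fewer counts a library no difference was detectable at this depth.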
